A study of Homo sapiens with 6 samples.

Results

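Transcript levels of 10 genes of phosphatidylcholine metabolism were examined in A549 cells, an epithelial cancer line derived from a human lung tumour, of 57773 genes in the deposited count table. The genes were taken by their symbols: GPCPD1, CHKA, PCYT1A, PCYT2, CHPT1, CEPT1, LPCAT1, LPCAT3, PLA2G4A and PEMT. The list was selected on the measured difference between these same rhSP-D and vehicle samples, with GPCPD1 at its head, so the changes of these 10 genes are given as a description, without p-values. The treated group held 3 samples given recombinant human surfactant protein D (rhSP-D) at 10 µg/ml for 48 h. The control group held 3 samples given vehicle, the same volume of the buffer the protein was eluted in, for the same 48 h. All cells grew in RPMI-1640 with fetal bovine serum and penicillin-streptomycin, and poly(A) RNA was sequenced. All 10 genes passed the filter on low counts and were among the 15848 genes tested.

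Phosphatidylcholine is the main phospholipid of mammalian membranes and of pulmonary surfactant, which alveolar type II cells secrete. Cells make it from choline in a chain known as the Kennedy pathway, in which choline is phosphorylated, activated with CTP and joined to diacylglycerol, or from phosphatidylethanolamine by methylation. Phospholipases and lysophospholipid acyltransferases then exchange its fatty acids, and full deacylation leaves glycerophosphocholine, from which GPCPD1 releases choline again.

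Among the 10 genes the fall of GPCPD1 was the largest change, from 162 ± 2.77 CPM (counts scaled to each library's size) in the vehicle group to 129 ± 2.18 CPM with rhSP-D (SD, n = 3), a fall by 20.6%. PLA2G4A, which encodes the cytosolic phospholipase A2 that releases arachidonate from phospholipids, fell by 7.67%. CHKA, the kinase of the first step from choline, rose by 13.3%. In bulk RNA, fewer cells with a transcript and less of it per cell cannot be told apart. The 3 genes were among those past an adjusted p of 0.05 in edgeR's quasi-likelihood test over all genes, where 15.9% of tested genes were. As the genes were selected on these values, the count describes the list and is no test of it. The other 7 genes did not pass that threshold under the settings used or under the alternatives that gave a value, which DESeq2 did not for PCYT2 and CEPT1.

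Totals over genes ran from 11396193 to 26030880 counts per library, and counts of the 10 genes from 203 (CEPT1, vehicle replicate 1) to 12818 (LPCAT1, rhSP-D replicate 1), for a counting error of 7.02% down to 0.883%. Vehicle replicate 1, the shallowest library, stood apart on the first principal component (29.3% of variance), at -38.2 against 3.59 to 12.3 for the other 5. Of 5 epithelial markers, the keratins KRT8 and KRT18 were at 5043 and 4125 CPM in vehicle and the cadherin CDH1 at 149 CPM, while KRT19 and EPCAM were at 1.83 and 1.82 CPM. The alveolar type II genes SFTPA1, SFTPA2, SFTPB and SFTPC had between 0 and 6 counts per library and SLC34A2 had 0 in every library. Of the 9 type II markers 1 was over 1 CPM, NAPSA, at 4.70 CPM in vehicle and 4.75 CPM with rhSP-D. SFTPD had 6 to 24 counts, LAMP3 2 to 8 and NKX2-1 0 to 2 per library. Among leukocyte markers, PTPRC, CD3E and LYZ had at most 1 count per library. The summed level of the leukocyte list was 84.7 to 90.6 CPM in vehicle and 93.0 to 98.4 CPM with rhSP-D, most of it from CD68 (84.4 CPM in vehicle, 92.4 CPM with rhSP-D), a lysosomal protein. CD14, the other leukocyte marker over 1 CPM, had 45 to 105 counts per library. The summed level of 6 fibroblast and endothelial markers was 10.5 to 14.7 CPM in vehicle and 13.2 to 14.1 CPM with rhSP-D. Most of that sum came from COL1A1 (11.5 CPM in vehicle, 12.2 CPM with rhSP-D). LUM was at 1.34 CPM in vehicle and 1.32 CPM with rhSP-D, and DCN was at 0.

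The promoter windows of 3 genes are shown: PLA2G4A, which fell, PTGS2, its neighbour on chromosome 1, which encodes the cyclooxygenase that uses arachidonate and fell too, and LPCAT1, the most abundant of the 10 genes per length, whose level differed by less than the spread between samples. RefSeq promoter windows (GRCh38.p14) were matched by symbol for 8 of the 10 genes, all but GPCPD1 and CHKA, in 12 windows, each with 250 bases before and 50 after a start. Capitals mark the motifs searched on both strands: the CCAAT box (CCAAT), the GC box (GGGCGG), an E-box (CACGTG), the TATA box (TATAAA) and an AP-1 site (TGACTCA).
PLA2G4A, chr1:186828699-186828998, plus strand: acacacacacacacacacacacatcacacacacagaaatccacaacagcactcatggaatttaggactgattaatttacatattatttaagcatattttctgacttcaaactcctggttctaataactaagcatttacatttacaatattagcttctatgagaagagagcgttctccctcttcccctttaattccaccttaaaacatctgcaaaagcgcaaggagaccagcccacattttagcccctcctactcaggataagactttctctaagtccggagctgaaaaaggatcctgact
PTGS2, chr1:186680374-186680673, minus strand: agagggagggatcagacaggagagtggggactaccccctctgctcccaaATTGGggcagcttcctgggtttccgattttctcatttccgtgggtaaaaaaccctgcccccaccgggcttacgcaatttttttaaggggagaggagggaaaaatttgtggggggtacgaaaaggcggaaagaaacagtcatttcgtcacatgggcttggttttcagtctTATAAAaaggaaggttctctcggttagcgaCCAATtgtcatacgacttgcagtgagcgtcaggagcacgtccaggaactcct
LPCAT1, chr5:1523911-1524210, minus strand: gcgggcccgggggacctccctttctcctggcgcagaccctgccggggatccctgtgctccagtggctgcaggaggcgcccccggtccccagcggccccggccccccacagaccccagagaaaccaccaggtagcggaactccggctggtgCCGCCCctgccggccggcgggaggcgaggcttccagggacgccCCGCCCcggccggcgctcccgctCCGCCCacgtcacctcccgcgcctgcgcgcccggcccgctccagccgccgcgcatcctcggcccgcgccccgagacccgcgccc
The PLA2G4A window was 39.7% G and C and held none of the 5 motifs. The PTGS2 window was 50.7% G and C, with a TATA box at position -32 from the start and 2 CCAAT boxes. The LPCAT1 window was 80.0% G and C and held 3 GC boxes. Over all 35116 windows the median was 58.7% G and C. A GC box was present in 45.0% of them, a CCAAT box in 34.6%, a TATA box in 11.5%, an E-box in 7.26% and an AP-1 site in 4.95%. Of the other windows, a window of PCYT2 held 7 GC boxes and 3 CCAAT boxes. That of LPCAT3 held 5 GC boxes and 3 CCAAT boxes, and that of CHPT1 held 4 GC boxes. The window of PCYT1A and a window each of CEPT1 and PEMT held none of the 5 motifs. The matches describe letters in these windows and not bound sites.

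Levels were compared between genes as TPM, counts scaled by gene length (here that of all merged exons) and then by the library's sum. In vehicle LPCAT1 was highest at 243 ± 2.73 TPM, followed by PLA2G4A at 109.8 ± 4.14, PEMT at 79.1 ± 3.43 and GPCPD1 at 68.8 ± 0.762 TPM (SD, n = 3). LPCAT3 was at 36.5 ± 0.533, CHKA at 27.9 ± 1.40, CHPT1 at 19.1 ± 0.440 and PCYT1A at 18.2 ± 1.06 TPM. PCYT2 at 8.40 ± 0.784 and CEPT1 at 6.68 ± 0.329 TPM were the lowest, so that the list spanned 36.4-fold. The 3 vehicle values of CHPT1 and PCYT1A overlapped, and all other neighbours in this order were apart. With the length of the longest transcript instead, PEMT (97.3 TPM) stood above PLA2G4A (82.5 TPM), and the other 8 genes kept their places. The lysophosphatidylcholine acyltransferase tied to surfactant lipid and the arachidonate-releasing lipase were thus the most abundant of these transcripts on merged exons, and PCYT1A, PCYT2 and both phosphotransferases were among the 4 lowest.

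**Figure D1:**
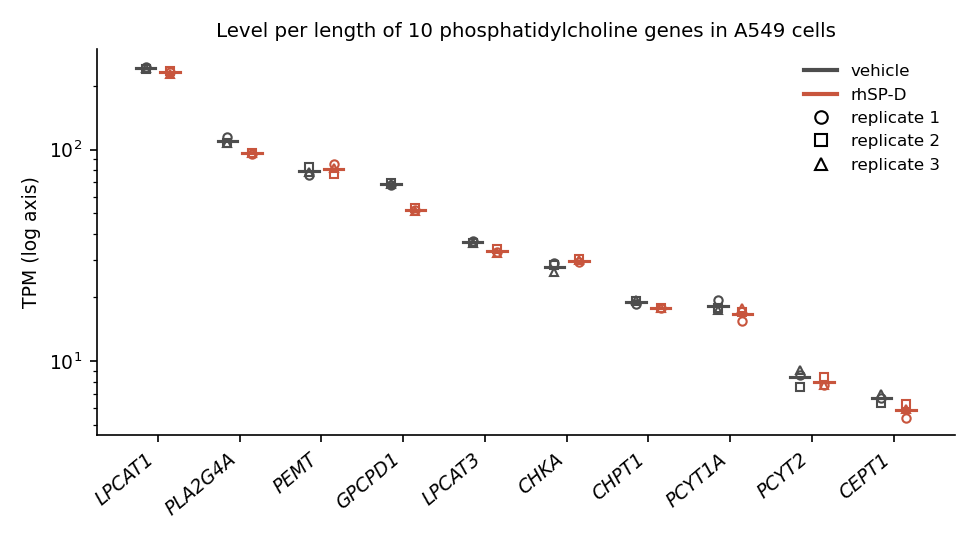
Level per length (TPM, log axis) of the 10 genes in each of 3 vehicle and 3 rhSP-D samples, ordered by the vehicle mean. Symbols are replicates and short lines are group means; LPCAT1 is at 243 TPM in vehicle and CEPT1 at 6.68 TPM.

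GPCPD1 (ENSG00000125772, chromosome 20, 5544404 to 5611026, minus strand, GRCh38) encodes the phosphodiesterase that splits glycerophosphocholine into choline and glycerol 3-phosphate. It was at 161, 166 and 161 CPM in vehicle replicates 1, 2 and 3, and at 128, 131 and 127 CPM with rhSP-D replicates 1, 2 and 3. All rhSP-D samples lay below all vehicle samples, and the gap between the groups was wider than the range within either. The log2 change was -0.33 ± 0.03 (SE), with a 95% interval from -23.7% to -17.5%. Of 1051 genes that fell over the whole table, 138 fell by as much as GPCPD1 or more, GPCPD1 among them, and the median log2 change of the 1051 was -0.19. Leaving out 1 library at a time gave log2 changes from -0.35 to -0.32. The transcript is long and low in G and C (36.5%), and with trends on gene length and GC content removed the log2 change was -0.24. No annotated exon of another gene overlaps its exons.

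CHKA (ENSG00000110721, chromosome 11, 68052859 to 68121444, minus strand) encodes choline kinase alpha. It was at 35.1, 34.7 and 31.9 CPM in vehicle and at 37.8, 38.7 and 38.3 CPM with rhSP-D. The rhSP-D values lay above all vehicle values and close together, and vehicle replicate 3 was the lowest sample. The log2 change was 0.18 ± 0.05 (SE), with a 95% interval from 5.40% to 21.9%. Without vehicle replicate 3 it was 0.13 and did not pass the threshold, nor did it with library totals alone as scaling (0.14) or in DESeq2 (0.18). Exons of 1 gene on the opposite strand (8.48 CPM on average) cover 631 of its 3877 exonic bases.

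The next enzymes of the chain did not pass the threshold. PCYT1A (ENSG00000161217, chromosome 3, 196214222 to 196287957), the enzyme that activates phosphocholine with CTP and whose step limits synthesis from choline, was at 48.5, 45.0 and 43.4 CPM in vehicle and 41.0, 44.7 and 46.9 CPM with rhSP-D. The groups overlapped, with a log2 change of -0.04 ± 0.05 (SE) and an interval from -9.74% to 4.73%. PCYT2 (ENSG00000185813, chromosome 17, 81900965 to 81911464), which does the same for ethanolamine, was at 18.6, 16.4 and 19.5 CPM in vehicle and 17.7, 19.2 and 17.5 CPM with rhSP-D. Its samples overlapped too, with an interval from -10.8% to 11.2%, and changes within that interval could not be told from none. ANAPC11 (165 CPM on average), which rose (log2 change 0.18 ± 0.03 SE, adjusted p = 1.07e-05 in edgeR), is among the genes whose exons overlap PCYT2 on the opposite strand, over 1941 of 6897 exonic bases in all.

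CHPT1 (ENSG00000111666, chromosome 12, 101696947 to 101744140), the cholinephosphotransferase that completes phosphatidylcholine, was at 35.0, 36.6 and 36.5 CPM in vehicle and 35.3, 35.4 and 35.5 CPM with rhSP-D. The rhSP-D values lay inside the vehicle range, and the interval was -8.63% to 5.01%. CEPT1 (ENSG00000134255, chromosome 1, 111139627 to 111185102), a phosphotransferase that accepts choline or ethanolamine, was at 17.6, 16.9 and 18.4 CPM in vehicle and 15.04, 17.3 and 16.4 CPM with rhSP-D. Here the groups overlapped through rhSP-D replicate 2, and the log2 change was -0.12 ± 0.08 (SE), with an interval from -17.9% to 2.48%. It had the fewest counts of the 10 genes. Within a library CHPT1 stood at 2.86 ± 0.146 times CEPT1 per length in vehicle and 3.06 ± 0.217 times in rhSP-D, with overlapping values (SD, n = 3). PCYT1A stood at 2.18 ± 0.232 and 2.11 ± 0.174 times PCYT2, also overlapping.

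PEMT (ENSG00000133027, chromosome 17, 17505563 to 17591708), which makes phosphatidylcholine by methylating phosphatidylethanolamine, was at 40.8, 44.9 and 42.4 CPM in vehicle and 48.9, 43.4 and 46.3 CPM with rhSP-D. The groups overlapped because rhSP-D replicate 2 lay below vehicle replicate 2. The log2 change of 0.11 ± 0.05 (SE) had an interval from 0.799% to 16.3%, on one side of 0, but PEMT did not pass once adjusted over all genes. Its log2 change ranged from 0.008, with length and GC trends removed and a replicate block, to 0.16, without vehicle replicate 2.

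LPCAT1 (ENSG00000153395, chromosome 5, 1456480 to 1523977) encodes the acyltransferase that makes saturated phosphatidylcholine in type II cells. It was at 501, 495 and 492 CPM in vehicle and 501, 502 and 488 CPM with rhSP-D. The samples of both groups were intermixed, and the log2 change of 0.004 ± 0.02 (SE) had the narrowest interval of the list, from -2.41% to 3.03%. LPCAT3 (ENSG00000111684, chromosome 12, 6976186 to 7018510), which places polyunsaturated fatty acids such as arachidonate into lysophosphatidylcholine, was at 54.8, 54.3 and 53.2 CPM in vehicle and 51.5, 53.0 and 50.5 CPM with rhSP-D. All rhSP-D values lay below all vehicle values, by a small margin, and with a log2 change of -0.06 ± 0.04 (SE) and an interval from -9.86% to 1.49% LPCAT3 did not pass the threshold. Exons of EMG1 on the opposite strand cover 3100 of its 4725 exonic bases (65.6%), and EMG1 (42.8 CPM on average) was at a log2 change of -0.05 ± 0.05 (SE). How reads that overlap both genes were counted is not given in the labels.

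PLA2G4A (ENSG00000116711, chromosome 1, 186828953 to 186988981, plus strand) was at 103, 97.6 and 96.6 CPM in vehicle and 91.1, 90.8 and 91.3 CPM with rhSP-D. The rhSP-D samples were close together and below all vehicle samples, of which replicate 1 was highest. The log2 change was -0.12 ± 0.03 (SE), with an interval from -11.9% to -3.20%. It was -0.09 without vehicle replicate 1 and -0.12 without rhSP-D replicate 1, and in neither case past the threshold. It did not pass in DESeq2 (-0.12) or with length and GC trends removed (-0.08). No annotated exon of another gene overlaps its exons.

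In all, the rhSP-D values lay wholly on one side of the vehicle values for 4 of the 10 genes, GPCPD1, CHKA, LPCAT3 and PLA2G4A, where 31.5% of all genes tested showed such a separation, 16.2% with rhSP-D above and 15.4% with rhSP-D below. The median log2 change of the 10 genes was -0.04 and that of all genes tested -0.006. Of the genes past the threshold in the whole comparison, 58.4% were higher in rhSP-D, against 30.4% with library totals alone as scaling and 74.8% with length and GC trends removed. Exons of an opposite-strand gene overlap 7 of the 10 genes, all but GPCPD1, LPCAT1 and PLA2G4A.

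**Figure D2:**
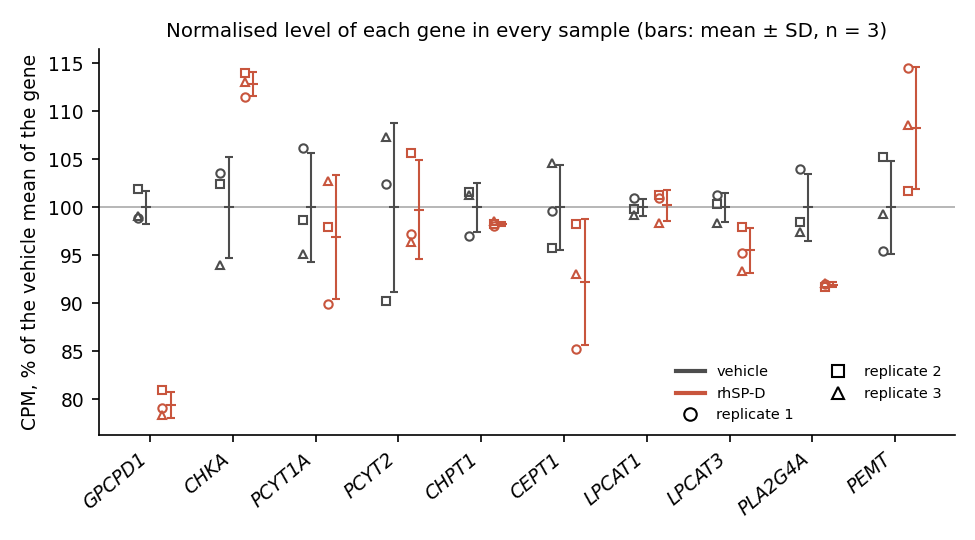
Normalised level (CPM) of each gene in every sample, as a percentage of the mean of its 3 vehicle samples; bars are the mean ± SD of 3 samples. GPCPD1 and PLA2G4A lie below the vehicle values in all rhSP-D samples and CHKA above them, while the samples of LPCAT1 are intermixed.

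**Figure D3:**
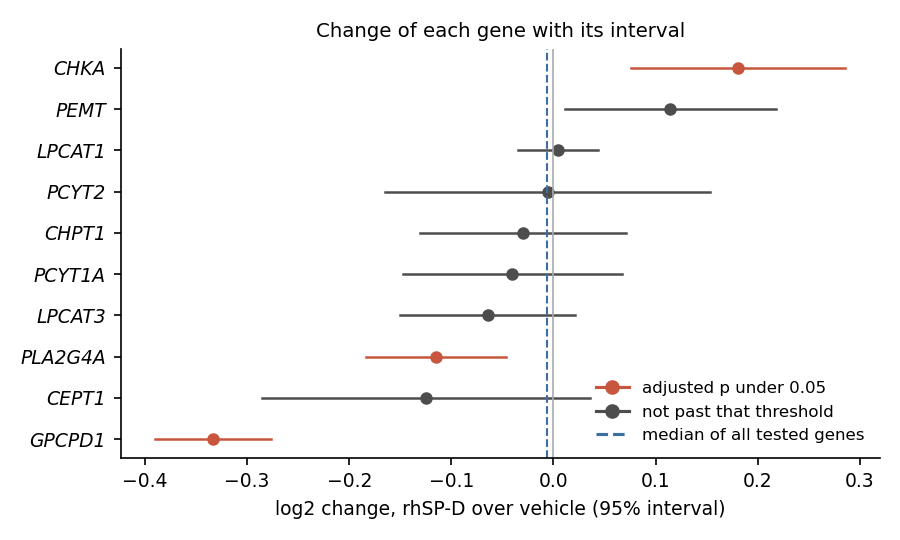
Log2 change of rhSP-D over vehicle for each gene (point) with its 95% interval (line), ordered by size. The dashed line is the median of all tested genes, -0.006; GPCPD1 lies at -0.33 and CHKA at 0.18.

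Ratios between genes within a library do not depend on how libraries are scaled. GPCPD1 stood at 2.35, 2.45 and 2.60 times CHKA per length in vehicle and at 1.75, 1.75 and 1.71 times in rhSP-D. The change of the mean ratio of the choline-releasing enzyme to the choline kinase was -29.7%, with no overlap between the groups. Relative to LPCAT1, whose own level differed little, GPCPD1 went from 0.283 ± 0.00586 to 0.224 ± 0.00231 (SD, n = 3). The ratio of GPCPD1 to each of the other 9 genes was lower in every rhSP-D sample than in every vehicle sample. The smallest such differences were against PLA2G4A, which itself fell, and CEPT1, which did not pass the threshold. The change of the mean ratio was -13.7% for each of them. PLA2G4A relative to LPCAT1 went from 0.451 ± 0.0120 to 0.414 ± 0.00755, without overlap, and relative to LPCAT3 from 3.01 ± 0.0722 to 2.90 ± 0.0777, with overlap. CHKA relative to PCYT1A, the next step, went from 1.53 ± 0.0512 to 1.79 ± 0.106, without overlap.

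**Figure D4:**
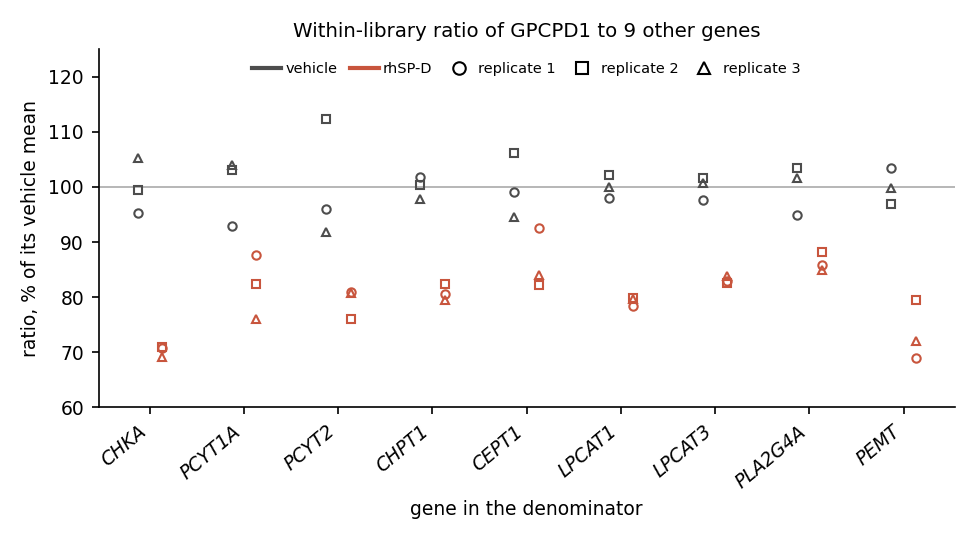
Ratio of GPCPD1 to each of the other 9 genes per length in every sample, as a percentage of the vehicle mean of that ratio; the vertical axis starts at 60. All rhSP-D symbols lie below all vehicle symbols in each column, lowest for CHKA and PEMT. The columns share the same numerator, a gene selected on its fall in these samples.

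Genes of neighbouring pathways were taken from 11 lists by function, 139 genes in all, of which 114 could be tested. Of these 10 rose and 11 fell, or 18.4% against 15.9% of all genes, where 9.31% rose and 6.63% fell. With library totals alone as scaling 7 rose and 18 fell. Their median log2 change was 0.007, and 5 of the 11 lists held genes that rose and genes that fell. The lists were chosen with earlier results of these data known, so the counts per list below are a description.

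No gene of choline transport and oxidation passed (0 of 7 tested by edgeR, 0 in DESeq2 and 0 in limma-voom after adjustment). The largest change of the 7 was that of SLC44A5, a log2 change of -0.36 ± 0.17 (SE) at 4.27 CPM in vehicle. All rhSP-D values of SLC44A5 and of SLC44A2 (-0.16 ± 0.09 SE) lay below all vehicle values. The groups of the other tested genes in the list overlapped. Over all genes tested 31.5% had groups apart, 15.4% with rhSP-D below. SLC44A1, a choline transporter, was at 56.3 ± 0.629 CPM in vehicle and 55.5 ± 4.39 CPM with rhSP-D (SD, n = 3). Of 9 other genes of the choline and ethanolamine branches 1 rose and 1 fell. PTDSS2, which makes phosphatidylserine from phosphatidylethanolamine, rose by 12.4% (log2 change 0.17 ± 0.04 SE, adjusted p = 0.00412 in edgeR), and ETNK1, an ethanolamine kinase, fell by 7.50% (adjusted p = 0.0390). CHKB, the second choline kinase, was at 20.0 ± 1.35 and 19.8 ± 0.861 CPM and did not pass. Leaving out rhSP-D replicate 1 took PTDSS2 below the threshold (log2 change 0.12). ETNK1 did not pass without vehicle replicate 1 or 3 or without any 1 of the rhSP-D replicates (-0.14 to -0.08 over all libraries left out), nor with length and GC trends removed (-0.02).

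Among 15 genes of glycerophosphodiester handling and deacylation, the reactions around GPCPD1, 1 rose and 2 fell. The lysophospholipases LYPLA2 and LYPLA1 went opposite ways: LYPLA2 rose by 14.3% (log2 change 0.19 ± 0.04 SE, adjusted p = 0.000698 in edgeR) and LYPLA1 fell by 8.90% (-0.13 ± 0.04 SE, adjusted p = 0.00937). GPD2, a mitochondrial dehydrogenase of glycerol 3-phosphate, fell by 11.5% (adjusted p = 0.0273). PNPLA6, a phospholipase that produces glycerophosphocholine, was at 67.4 ± 2.39 and 70.9 ± 1.59 CPM and did not pass. The other glycerophosphodiesterases GDE1 (86.0 and 87.6 CPM) and GDPD5 (10.6 and 9.76 CPM) did not pass either. LYPLA1 was not past the threshold without vehicle replicate 2 or 3 or rhSP-D replicate 1 (-0.16 to -0.12 over all libraries left out), and GPD2 passed only without rhSP-D replicate 2 (-0.18 to -0.17). With length and GC trends removed LYPLA2 was at 0.10, LYPLA1 at -0.07 and GPD2 at -0.09, and none of the 3 passed.

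Of 12 lysophospholipid acyltransferases 1 rose and 1 fell. AGPAT2, which makes phosphatidate, rose by 9.26% (adjusted p = 0.0376 in edgeR), and LPGAT1, an acyltransferase of lysophosphatidylglycerol, fell by 5.88% (adjusted p = 0.0272). Both depended on the libraries kept: AGPAT2 passed only without vehicle replicate 2 or rhSP-D replicate 3 (log2 change 0.09 to 0.16 over all libraries left out), and LPGAT1 only without rhSP-D replicate 1 or 3 (-0.10 to -0.07). LPCAT2 and LPCAT4, relatives of LPCAT1, were at log2 changes of -0.07 ± 0.09 and 0.12 ± 0.04 (SE) and did not pass. Of 13 phospholipases A2 and D other than PLA2G4A 1 rose, PAFAH1B3, a subunit of the acetylhydrolase of platelet-activating factor, by 15.9% (log2 change 0.21 ± 0.04 SE, adjusted p = 0.000192). PLD1 and PLD2, which cut phosphatidylcholine to phosphatidate, did not pass. With length and GC trends removed PAFAH1B3 was at 0.10 and AGPAT2 at 0.03, LPGAT1 changed sign to 0.014, and none of the 3 passed.

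Of 13 genes of phosphatidate and diacylglycerol 2 rose and none fell. PPAP2C (now PLPP2), a phosphatidate phosphatase, rose by 12.1% (log2 change 0.16 ± 0.03 SE, adjusted p = 0.000382 in edgeR), and AGPAT6 (now GPAT4), a glycerol-3-phosphate acyltransferase, rose by 7.29% (adjusted p = 0.0170). AGPAT6 was not past the threshold without vehicle replicate 2 or rhSP-D replicate 3 (0.09 to 0.11 over all libraries left out). Of 10 genes of sphingomyelin exchange 2 fell. SGMS2, a synthase that moves the phosphocholine head group from phosphatidylcholine to ceramide, fell by 18.6% (log2 change -0.30 ± 0.09 SE, adjusted p = 0.0272), and SAMD8, a related synthase, fell by 13.3% (adjusted p = 0.0349). The median of that list was 0.09, on the other side of 0 from both. SGMS2 did not pass without vehicle replicate 1 or 3 or rhSP-D replicate 2 (-0.37 to -0.21), nor SAMD8 without those or rhSP-D replicate 1 (-0.26 to -0.15). Neither passed with length and GC trends removed (SGMS2 -0.20, SAMD8 -0.11).

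Of 9 genes of phosphatidylcholine transfer and export 1 rose, STARD10, a phospholipid transfer protein, by 19.6% (log2 change 0.26 ± 0.07 SE, adjusted p = 0.0141 in edgeR). It was not past the threshold without vehicle replicate 3 or rhSP-D replicate 2 (0.21 to 0.32 over all libraries left out), nor in DESeq2 (0.26). ABCA3, which loads surfactant phospholipid into lamellar bodies, was at 79.9 ± 1.84 CPM in vehicle and 75.6 ± 1.00 CPM with rhSP-D (SD, n = 3) and did not pass. Of 9 genes listed under methyl donor supply, which serves PEMT, 3 fell and none rose, where 6.63% of all genes fell and 9.31% rose. Whether the list differs from all genes was not tested. MAT2A, which makes S-adenosylmethionine, fell by 6.14% (log2 change -0.09 ± 0.02 SE, adjusted p = 0.00122 in edgeR). AHCYL1, a relative of AHCY whose part in this supply was not tested, fell by 8.69% (adjusted p = 0.00557 in edgeR). The methionine synthase MTR fell by 12.7% (adjusted p = 0.0227 in edgeR). AHCY itself had all rhSP-D values above all vehicle values (log2 change 0.06 ± 0.02 SE) and did not pass. MTR passed only without vehicle replicate 2 or rhSP-D replicate 1 (-0.23 to -0.16 over all libraries left out). With length and GC trends removed STARD10 was at 0.21, MAT2A at -0.05 and MTR at -0.10, and none of the 3 passed; AHCYL1 (-0.10) passed then, but not with a replicate block as well.

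Of 10 genes that make signalling lipids from arachidonate, the product of PLA2G4A, or convert these lipids further, 2 rose and 1 fell. PTGS2 fell by 14.8% (log2 change -0.23 ± 0.05 SE, adjusted p = 0.000888 in edgeR), PTGES, the prostaglandin E synthase that acts after it, rose by 13.1% (0.18 ± 0.02 SE, adjusted p = 6.33e-06), and PTGR1, a prostaglandin reductase, rose by 4.78% (adjusted p = 0.0471). PTGR1 passed only without vehicle replicate 2 (log2 change 0.06 to 0.09 over all libraries left out). PTGS2 lies 148526 bases from PLA2G4A, and of 3 tested genes within 500 kb of PLA2G4A 2 fell, PTGS2 and TPR. TPR, a nuclear pore protein, fell by 8.70% (adjusted p = 0.00262 in edgeR). Within 500 kb of GPCPD1 2 of 9 tested genes rose and 1 fell, and within 500 kb of CHKA 5 of 15 rose and 2 fell, against 9.31% higher and 6.63% lower over all genes tested. Of 7 genes of organic osmolytes, a class to which glycerophosphocholine belongs, 1 rose and 1 fell. NFAT5, the transcription factor of the response to hypertonic medium, fell by 20.8% (log2 change -0.34 ± 0.05 SE, adjusted p = 1.50e-05), and AKR1B1, which makes sorbitol, rose by 19.2% from 1670.2 ± 10.9 CPM (0.25 ± 0.01 SE, adjusted p = 1.92e-12). With length and GC trends removed PTGES was at 0.09 and NFAT5 at -0.22, both past the threshold.

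**Figure D5:**
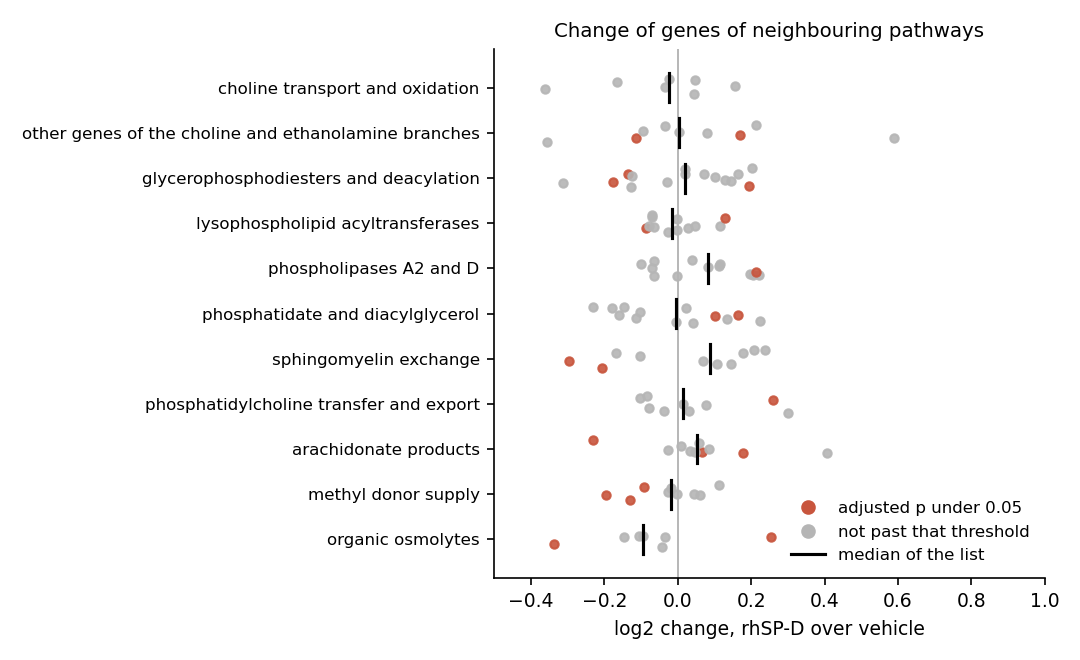
Log2 change of rhSP-D over vehicle for the tested genes of 11 lists; red points passed an adjusted p of 0.05 and black lines are list medians. Points of one list are spread vertically only for display; NFAT5 lies at -0.34 and AKR1B1 at 0.25 in the bottom row.

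The genes whose levels over the 6 samples were most like those of GPCPD1 were MON2, POF1B, SLC30A1, PDZD8 and SASH1, of 14373 genes compared. Likeness was the root mean square difference of log2 CPM, each gene centred on its own mean, and ran from 0.02 for MON2 to 0.03 for SASH1. MON2, a protein of the trans-Golgi network, went from 37.4 ± 1.19 to 30.1 ± 0.390 CPM (SD, n = 3), and SLC30A1, a zinc exporter, from 122 ± 2.42 to 96.8 ± 2.23 CPM. PDZD8, a lipid transfer protein of the endoplasmic reticulum, went from 104 ± 0.496 to 85.4 ± 0.516 CPM. POF1B went from 9.69 ± 0.376 to 7.66 ± 0.171 CPM, and SASH1, which did not pass the threshold, from 5.81 ± 0.146 to 4.61 ± 0.114 CPM. The measure selects genes with about the same difference as GPCPD1, so their changes are no separate result. The same 5 genes were found with a prior count of 0.5 in place of 2.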

How the data were processed

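Poly(A) RNA of 6 A549 samples was measured by paired-end sequencing. The deposited table holds the authors' raw counts for each gene, as whole numbers, made with cutadapt, STAR 2.7.0a and featureCounts 2.0.0 on GRCh38, per the submitters' processing notes; for the annotation release, the strand setting and multi-mapping reads the sources used here give nothing. Samples were grouped by their titles. No label ties the replicates to separate cultures: the p-values rest on the spread among these 6 samples alone, possibly a technical one. Pairs of libraries differed beyond sampling noise (chi-square per degree of freedom 1.88 to 2.13 within groups).

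Counts were tested with edgeR 4.0.16 in R 4.3.3: filterByExpr (minimum count 10, minimum total 15), TMM factors, a robust quasi-likelihood fit, 2-sided, with Benjamini-Hochberg adjustment over 15848 genes. "Rose" and "fell" mean an adjusted p under 0.05. Changes are rhSP-D over vehicle, CPM use the TMM-scaled library size, and SEs come from the test statistic; counting errors are the inverse square root of the count. Coordinates, lengths and overlaps are from GENCODE 29 (GRCh38), which held 52338 of 57773 identifiers and may differ from the authors' annotation. The procedure was tested on simulated counts drawn with the dispersions of this fit. These held no length or GC trend, so the simulation cannot bear on how results depend on such trends.

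The genes and lists were chosen with earlier results of these data known. Named were the 10 genes, up to 3 genes per list with the smallest p among those past the threshold, and the 5 genes of at least 1 CPM most like GPCPD1; other genes were named for their function or position after their values were seen. Replicate numbers did not pair the samples by the labels or by their deviations. Alternatives were other scalings, filters, tools (DESeq2 1.42.0, limma-voom with limma 3.58.1), thinning to the shallowest library, a replicate block, leaving out each library, a threshold of 0.01, and offsets from splines on transcript GC and exonic length (96.8% of tested genes).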

Additional observations from a re-analysis of the deposited data

How the results depend on the processing

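Given as a description, since the genes were selected on the same samples, the log2 change of GPCPD1 over 17 alternatives ran from -0.37 (library totals alone) to -0.24 (length and GC offsets with the replicate block). The 7 of the 10 genes below the threshold stayed below it wherever an alternative gave a value; DESeq2 gave none for PCYT2 and CEPT1. CHKA and PLA2G4A lost the call in 3 and 5 of the 17. These are the ones given above and, for PLA2G4A, the length and GC offsets with the replicate block. At an adjusted p under 0.01 neither passed, and GPCPD1 did. Of 21 named genes of the neighbouring pathways 5 kept the call throughout (PTGS2, PTGES, AKR1B1, NFAT5 and PPAP2C), of which PTGES and NFAT5 shrank by over 1.5 times with length and GC offsets (0.09 and -0.22), and 12 lost it with length and GC offsets, under which LPGAT1 changed sign (log2 change 0.014, and 0.011 with the replicate block as well). The replicate numbers are shared only as numbers: same-numbered samples had correlations of deviations from -0.08 to 0.03, and a replicate block left 8 of these genes higher and 11 lower, and 1374 higher and 945 lower over all genes. The counts below moved by more than 1.5 times, apart from the upper ends of the ranges with 1 library left out, and the cause was not tested.

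Over all genes (1475 higher, 1051 lower), library totals alone gave 856 higher and 1961 lower, and an adjusted p under 0.01 gave 939 and 526. The number lower was 518 in DESeq2, 429 with length and GC offsets and 361 with those and the replicate block; with 1 library left out it ran from 636 (without rhSP-D replicate 1) to 892, and was 643 without vehicle replicate 3. Among neighbouring pathways (10 higher, 11 lower), 6 were higher in DESeq2 and at an adjusted p under 0.01. In DESeq2 AGPAT2, AGPAT6, STARD10 and PTGR1 lost the call. So did ETNK1, GPD2, LPGAT1, SAMD8 and MTR among the lower genes, and SGMS2 had no value there. With library totals alone AGPAT2, AGPAT6 and PTGR1 lost it. Lower were 18 with library totals alone, 5 in DESeq2, 6 after thinning, 3 with length and GC offsets, 2 with those and the replicate block, and 5 at an adjusted p under 0.01; with 1 library left out, from 4 (without vehicle replicate 3) to 9. Of the 10 genes, the counting error was largest for the scarcest, PCYT2 and CEPT1 (up to 6.82% and 7.02%).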
